A study of Mus musculus with 2 samples.

Results

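Kinesins, dyneins and myosins are the motor proteins that convert ATP hydrolysis into movement along microtubules and actin filaments. Their genes were compared between the cerebral cortex of Pax6-/- mouse embryos and that of wild type embryos. The set holds every probe set whose only gene symbol names a kinesin (Kif or Kifc), a kinesin light chain (Klc), a dynein (Dync, Dynl, Dnah), a dynactin subunit (Dctn), an unconventional myosin (Myo), or a myosin heavy or light chain (Myh, Myl). It comprised 91 of the 12488 probe sets on the arrays and 68 of 8252 genes. A further 3 probe sets that carry several such symbols were left out.

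The tissue was taken at embryonic day E14.5 from mice of the NMRI strain, and total RNA was hybridised to Affymetrix arrays, 1 array of Pax6-/- cortex and 1 of wild type cortex. The Pax6-/- embryos were homozygous mutants, and the labels do not name the allele. The design text speaks of 3 embryos of each genotype, and it is not stated in the sources used here if RNA of several embryos went onto an array. Since each genotype has 1 array, the differences were not checked in replicates and are given as sizes, without a test. In whole tissue, fewer cells of a type and less RNA per cell cannot be told apart.

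In cortical progenitors, kinesins of the mitotic spindle align chromosomes, hold the spindle poles apart and complete cytokinesis, while dynein and plus-end kinesins move the nucleus during each cell cycle. In postmitotic neurons, transport kinesins and dynein carry cargo along the axon, and dynein also pulls the nucleus during migration. Non-muscle myosin II contracts the actin cortex, and unconventional myosins link membranes and vesicles to actin.

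Values are MAS5 signals, an intensity on a linear scale. Each ratio is Pax6-/- over wild type on the log2 scale, after adding a pseudocount of 81.5. It was centred on the median ratio of the probe sets above the signal filter given below. Because of the pseudocount, a ratio understates the difference of dim genes. Each gene is represented by its brightest probe set. A signal filter, at about 166, was passed by 46 of the 68 genes, and 22 lay below it. Of those 46, 39 lay above the filter level on both arrays, 4 on the Pax6-/- array only and 3 on the wild type array only. A difference is called from 2-fold upward. The technical spread is the SD of the difference between the ratios of a gene's 2 brightest probe sets above the filter, divided by √2. It amounted to 0.72 at signals below 472, 0.54 below 832 and 0.38 above that, and it leaves out how embryos vary.

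The median signal of all probe sets was 284 on the Pax6-/- array and 237 on the wild type array. Pax6 itself read 447 in Pax6-/- and 1169 in wild type on its only probe set, a log2 ratio of −1.29. The place of that probe set relative to the mutation is not known here, so the value is no check of the labels. Of 12 markers of cortical neurons and progenitors, 8 were measured, and all 8 lay above the filter. Tbr1, a factor of deep-layer neurons, had 2405 in Pax6-/- and 5088 in wild type, and the progenitor intermediate filament gene Nes had 4035 in Pax6-/- and 3461 in wild type. By their brightest probe sets these marker genes read above the filter level on both arrays, Eomes only just, with 167 in Pax6-/-. Their median log2 ratio was −0.96. Markers of other cells that the tissue could hold were mixed. Over all measured markers the medians were 0.08 for meninges and mesenchyme (7 of 12 higher), 0.13 for erythroid cells (5 of 8) and −0.01 for ciliated ependyma and choroid plexus (3 of 6). Over those above the filter they were 0.34 (4 of 7), 0.36 (4 of 6) and 0.04 (2 of 4). Of the 12 meninges and mesenchyme markers, 1 was at least 2-fold higher and 2 lower, together 25%, against 12.2% of all genes. The higher one was the mesenchymal factor gene Twist2, at 1.52. The lower ones were Igf2, at −1.04, and Lum, below the filter, at −1.08.

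The sequences next to the starts of the mitotic kinesin genes are shown because most of these genes lay on the same side in the comparison, Kifc1 excepted, and share a sequence feature that the other motor genes mostly lack. Promoter windows of 300 bases, 250 before and 50 after the annotated start, were taken from RefSeq (GRCm38.p6) and were matched for 57 of the 68 motor genes and 6 of the 7 mitotic kinesins. They were searched on both strands for TTTGAA and TTCGAA, the core of the cell cycle genes homology region through which many mitotic genes are held low in resting cells, and for CCAAT, the box bound by the factor NF-Y. Each line below gives positions −130 to +30 relative to the start, 5′ to 3′ on the strand of the gene, with matches to TTTGAA and CCAAT or their reverse complements (TTCAAA and ATTGG) in capitals. Kif23 lies at chr9:61946770-61946929 on the minus strand. Kif4 lies at chrX:100625935-100626094 on the plus strand. Kif11 lies at chr19:37376252-37376411 on the plus strand. Kif2c lies at chr4:117178743-117178902 on the minus strand. Kif22 lies at chr7:127042391-127042550 on the minus strand, and Kifc1 at chr17:33890604-33890763 on the minus strand.
Kif23: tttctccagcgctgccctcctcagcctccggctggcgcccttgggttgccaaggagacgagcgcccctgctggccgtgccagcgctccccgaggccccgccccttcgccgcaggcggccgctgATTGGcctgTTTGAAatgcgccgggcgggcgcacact
Kif4: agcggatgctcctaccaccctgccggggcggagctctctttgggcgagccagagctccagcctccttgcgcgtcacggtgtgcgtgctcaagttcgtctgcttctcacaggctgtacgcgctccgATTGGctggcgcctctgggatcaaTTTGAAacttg
Kif11: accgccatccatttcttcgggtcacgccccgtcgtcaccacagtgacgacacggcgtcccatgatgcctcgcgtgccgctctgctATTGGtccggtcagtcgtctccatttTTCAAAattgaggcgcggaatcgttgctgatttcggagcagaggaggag
Kif2c: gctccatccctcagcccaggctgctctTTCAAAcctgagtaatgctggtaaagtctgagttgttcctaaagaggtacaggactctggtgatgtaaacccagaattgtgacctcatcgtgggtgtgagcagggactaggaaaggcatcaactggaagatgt
Kif22: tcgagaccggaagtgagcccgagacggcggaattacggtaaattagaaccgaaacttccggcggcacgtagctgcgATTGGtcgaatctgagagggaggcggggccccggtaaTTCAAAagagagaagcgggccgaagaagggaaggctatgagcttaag
Kifc1: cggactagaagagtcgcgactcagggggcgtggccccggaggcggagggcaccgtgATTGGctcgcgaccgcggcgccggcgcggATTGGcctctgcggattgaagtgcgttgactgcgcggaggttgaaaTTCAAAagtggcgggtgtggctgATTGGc

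TTTGAA was present in 6 of the 6 mitotic kinesin windows, against 3 of 67 windows of the other motor genes and 17.9% of all 32851 promoter windows of the same length. Each mitotic kinesin has 1 window, whereas the 67 belong to 51 genes, some with several starts. Counted by gene, with any window holding the motif, TTTGAA was present in 6 of 6, 3 of 51 and 20.2% of all 27025 genes. Within the last 150 bases of the window it was present in 5 of 6 mitotic kinesin windows, 2 of 67 of the others and 8.01% of all. CCAAT was present in 5 of 6 mitotic kinesin windows, 26 of 67 of the others and 37.4% of all. Both motifs together were found in 5 of 6, 0 of 67 and 6.95% of windows. TTCGAA, which is its own reverse complement, was in 0 of 6, 2 of 67 and 1.56%. In Kif23 and Kif4 the TTTGAA began 3 and 20 bases after the start, in the direction of the gene. In Kif11 and Kif22 it stood at −19 and −17, and in Kifc1 it began 2 bases after the start, each on the opposite strand. Kif2c had its match at −103 and no CCAAT. These matches describe the letters of the reference sequence and are not evidence of a factor's binding.

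**Figure D1:**
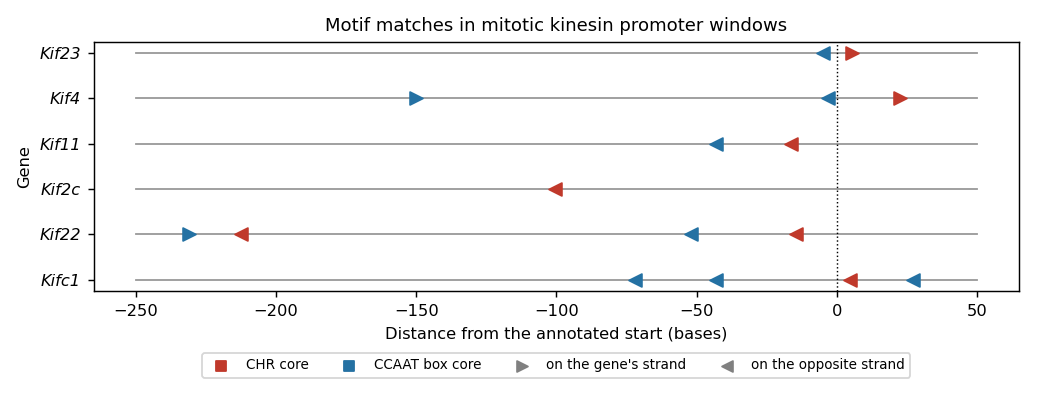
Positions of CHR core (red) and CCAAT box (blue) matches in the promoter windows of 6 mitotic kinesin genes, as distance in bases from the annotated start (dotted line); triangles point right for matches on the strand of the gene and left for the opposite strand. In 5 of the 6 windows a CHR core lies within 25 bases of the start, and Kif2c has its match at −103.

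Across all motor genes the number of 2-fold differences was close to that of the arrays as a whole. Above the filter, Kifc3, Myl4, Myl6 and Myo1c were higher and Myh14 lower by 2-fold or more, 5 of 46 genes or 10.9%, against 10.5% of all 5589 genes above it. By direction the background was 5.05% higher and 5.46% lower. With no filter the calls were 9 of 68 genes or 13.2%, against 12.2% of all 8252 genes, with 7 higher and 2 lower against backgrounds of 6.67% and 5.56%. In all 4 higher genes above the filter the wild type signal lay below the filter level, and in Myh14 the Pax6-/- signal did. Each was thus measured at a low signal on 1 of the arrays.

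**Figure D2:**
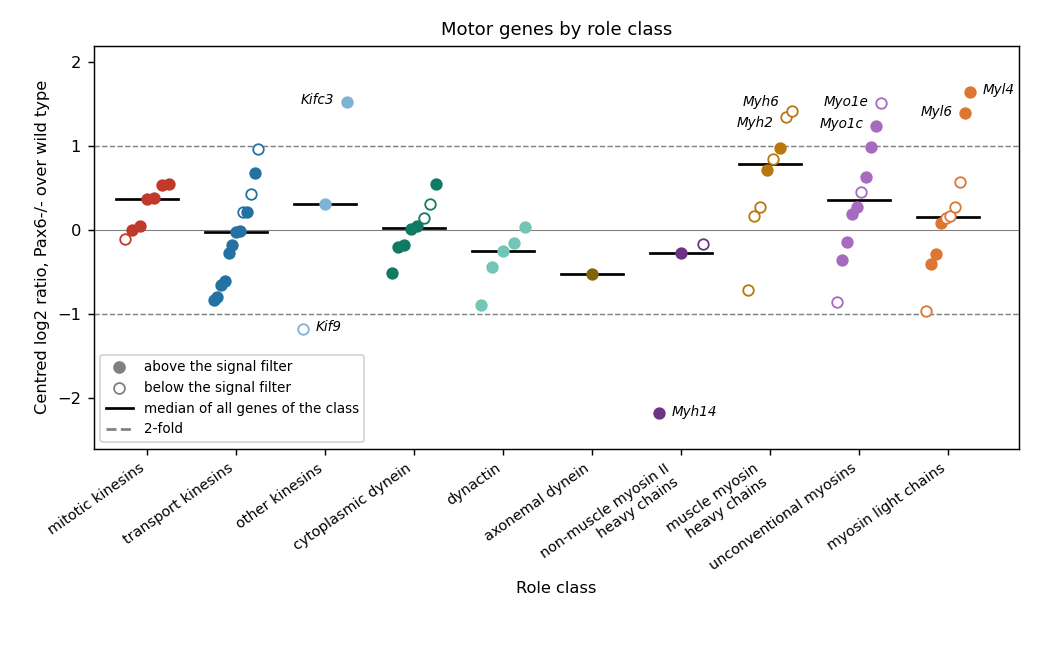
Centred log2 ratio, Pax6-/- over wild type, of the 68 motor genes by role class; filled points lie above the signal filter, open points below it, bars mark the class median over all its genes and dashed lines mark 2-fold. Mitotic kinesins range from −0.10 to 0.54, and the 9 genes past 2-fold are other kinesins and myosins.

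The differences followed the level of signal. All 9 motor genes past 2-fold were among the 44 with a signal below 472, where 17.5% of all genes were past 2-fold. Among 9 genes of middle signal the range was −0.28 to 0.69, and among 15 of high signal it was −0.89 to 0.55. All genes of high signal had a median of −0.16 and those of low signal one of 0.12, a trend that loess scaling subtracts. The medians of the 15 high and 44 low motor genes were −0.17 and 0.20.

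Mitotic kinesins were slightly higher in Pax6-/- cortex. Of 7 genes, 6 were higher and 1 lower, with a median log2 ratio of 0.37, against 0.02 over all 8252 genes, of which 51.9% were higher. None of the 7 was 2-fold apart. Kif23, the kinesin of the centralspindlin complex that builds the midzone in cytokinesis, had a signal of 895 in Pax6-/- and 567 in wild type, a log2 ratio of 0.54. Kif4, a chromosome-bound kinesin that organises the midzone, had 679 in Pax6-/- and 427 in wild type, likewise a log2 ratio of 0.54. Both had the largest ratios of the class.

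Kif11 (Eg5), which slides spindle microtubules apart, had a signal of 1043 in Pax6-/- and 753 in wild type, a log2 ratio of 0.38. Kif20a, a kinesin of cytokinesis, had 818 in Pax6-/- and 594 in wild type by its brighter probe set, a log2 ratio of 0.37. Its other probe set had 378 in Pax6-/- and 364 in wild type and so gave a ratio of 0.00. The 2 Kif20a probe sets thus did not show the same size of difference. The brighter one carries a suffix for shared or less strictly chosen probes, and the other does not.

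Kif2c, a kinesin that depolymerises microtubules at centromeres, was nearly equal, with 1371 in Pax6-/- and 1276 in wild type. Kif22, a chromosome-bound kinesin, had 2316 in Pax6-/- and 2231 in wild type. Kifc1, a minus-end kinesin that focuses spindle poles, lay just below the filter, with 153 in Pax6-/- and 162 in wild type. The log2 ratios of these genes were 0.05, 0.01 and −0.10. In the sequences above TTTGAA lies just after the start in Kif23 and Kif4, which had the highest ratios of the class, and in Kifc1, which had the lowest. Of the 7, Kif11 and Kif23 only just exceeded the technical spread at their signal level, and the other 5 lay within it. Progenitor markers on the same arrays did not share a direction. Sox2 and Nes were at 1.06 and 0.17, while Vim was at −0.60, within the technical spread at its signal level. Eomes and Neurog2, markers of neurogenic progenitors, were at −3.44 and −1.94. A second Eomes probe set above the filter, with 216 in Pax6-/- and 671 in wild type, was at −1.39. The part of a changed number of progenitors in these ratios was not tested.

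Genes that act with the mitotic kinesins were measured from a fixed list of 22, of which 18 were on the arrays. Of those, 16 were higher and 2 lower in Pax6-/-, with a median of 0.24, and 1 was at least 2-fold apart. Most of these differences were small, and 14 of the 18 lay within the technical spread at their signal level. Among the 9 of high signal 8 were higher, against 34.4% of all genes of high signal. The gene past 2-fold was Cenpe, the kinetochore kinesin whose symbol lies outside the rule of selection, with 212 in Pax6-/- and 13.1 in wild type. Its other probe set read 25.4 in Pax6-/- and 8.32 in wild type, and neither passed the filter. Top2a, the topoisomerase that untangles chromosomes, had 1477 in Pax6-/- and 871 in wild type, a log2 ratio of 0.66. Mki67, a chromosome-coating protein of dividing cells, had 1554 in Pax6-/- and 973 in wild type, a log2 ratio of 0.59, and 0.60 by its second probe set. Incenp, a scaffold of the Aurora B complex, was at 0.55 by one probe set and −0.15 by the other. The probe sets of Plk1, all above the filter, disagreed as well, at 0.27, 0.73 and −0.34. Cdk1 and Ccnb2, the kinase and a cyclin that start mitosis, were nearly equal, at 0.01 and −0.02.

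**Figure D3:**
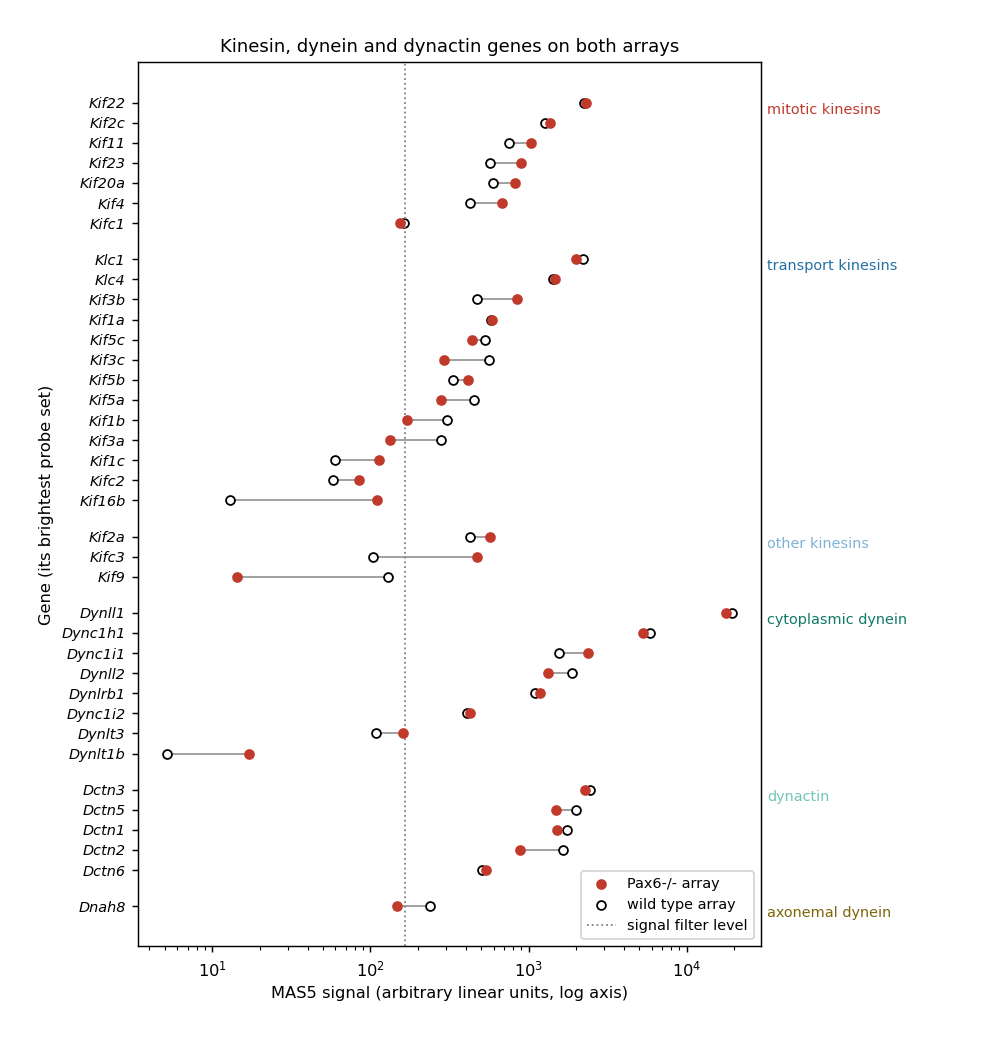
MAS5 signal (log axis) of each kinesin, dynein and dynactin gene on the Pax6-/- array (red) and the wild type array (open), by its brightest probe set and grouped by role; the dotted line is the filter level of about 166. Mitotic kinesins have their points close together, with Pax6-/- to the right except in Kifc1, while Kifc3 and Kif9 show wide gaps in opposite directions at low signal.

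Transport kinesins were mixed. Of 13 genes, 5 were higher and 8 lower in Pax6-/-, with a median log2 ratio of −0.02, and none was 2-fold apart. Of the 10 above the filter, 2 were higher and 8 lower, with a median of −0.23, against −0.02 over all 5589 genes above the filter. Above the filter the largest differences of this class were those of kinesin-2 subunits, and they did not share a direction.

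Kinesin-2 is a heterotrimer of Kif3a with Kif3b or Kif3c, and the Kif3c form is found mainly in neurons. Kif3c had a signal of 290 in Pax6-/- and 559 in wild type, a log2 ratio of −0.83. Kif3b had 840 in Pax6-/- and 474 in wild type, a log2 ratio of 0.69. The 2 Kif3a probe sets disagreed: one had 134 in Pax6-/- and 281 in wild type, and the other, below the filter, 120 in Pax6-/- and 24.6 in wild type. Their log2 ratios were −0.80 and 0.88. Kifap3, the accessory subunit of the complex, had 492 in Pax6-/- and 677 in wild type by the brighter of its probe sets, and the other probe set was at 0.82.

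Kinesin-1, the main motor of fast axonal transport, pairs Kif5 heavy chains with Klc light chains. The neuronal heavy chain genes Kif5a and Kif5c were at −0.61 and −0.28, whereas the ubiquitous Kif5b was at 0.21. Kif5a had 278 in Pax6-/- and 449 in wild type by its brighter probe set, while its dim probe set, with 80.4 in Pax6-/- and 3.63 in wild type, was at 0.88. Klc1 had 2003 in Pax6-/- and 2206 in wild type by its brightest probe set, a log2 ratio of −0.18. Its other probe sets had 1975 and 1968 in Pax6-/- and 1800 and 1635 in wild type, at 0.08 and 0.21. Klc4 had 1477 in Pax6-/- and 1433 in wild type, and 78.2 in Pax6-/- and 66 in wild type by its dim probe set. By their brightest probe sets Kif5a, Kif5b and Kif5c stayed within the technical spread at their signal level, as did both light chain genes.

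Kinesin-3 motors carry synaptic vesicle precursors and other membrane cargo, and Kif1a also moves the nuclei of radial glia away from the ventricle. Kif1a had a signal of 584 in Pax6-/- and 575 in wild type, a log2 ratio of −0.02. Kif1b had 170 in Pax6-/- and 303 in wild type, a log2 ratio of −0.66, and 0.17 by its other probe set below the filter. Kif1c, Kif16b, a kinesin of early endosomes, and Kifc2, a minus-end kinesin of neurons, lay below the filter, with signals of 114, 109 and 84.8 in Pax6-/- and 59.4, 13.0 and 57.6 in wild type. Their ratios of 0.43, 0.97 and 0.21 were all on the higher side, as were those of 59.3% of all genes below the filter.

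Genes that bind transport motors or form their tracks were close to other genes of their signal. Of 24 listed, 16 were measured, 4 of them higher and 12 lower, with a median of −0.16. The 12 of high signal had 3 higher, or 25%, and a median of −0.06, against 34.4% and −0.16 over all genes of high signal. Map1b, a microtubule-binding protein of growing axons, was the member at least 2-fold apart, with 48.7 in Pax6-/- and 364 in wild type, below the filter. Map2, its counterpart in dendrites, had 489 in Pax6-/- and 1022 in wild type, just short of 2-fold. Trak1, which links kinesin-1 to mitochondria, was at −0.83. Pafah1b1 (Lis1), Nde1 and Ndel1, which regulate dynein in nuclear movement, were at −0.01, 0.08 and −0.08. Of the 3 Ndel1 probe sets, another above the filter was at 0.91. The neuronal markers Neurod6 and Neurod2 were at −0.94 and −0.98 on the same arrays. Of the listed partners, Dcx was at −0.51 and Tubb3 at −0.25, the latter within the technical spread. The 3 Mapt probe sets were at −0.04, 0.27 and 0.07. The part of a changed number of neurons in the ratios of the transport motors, which were mixed, was not tested.

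Other kinesins included the widest differences among microtubule motors. Kifc3, a minus-end kinesin of epithelial junctions and Golgi positioning, had a signal of 469 in Pax6-/- and 104 in wild type, a 2.88-fold difference and a log2 ratio of 1.53. It passed the filter through the Pax6-/- array alone. Other settings moved its log2 ratio between 0.97 and 2.13, past 2-fold in 7 of 8. Kif9, a kinesin associated with ciliary axonemes, was below the filter, with 14.3 in Pax6-/- and 129 in wild type, a log2 ratio of −1.18. Its other probe set, with 25.8 in Pax6-/- and 18.9 in wild type, gave 0.05. Kif2a, a microtubule depolymerase that limits axon branching, had 570 in Pax6-/- and 426 in wild type, a log2 ratio of 0.31.

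Dynein and dynactin genes differed little. Of 13 genes, 6 were higher and 7 lower, with a median of −0.15 and a range of −0.89 to 0.55, and none was 2-fold apart. Over the 11 above the filter the median was −0.17, and −0.03 with loess or quantile scaling. The heavy chain gene Dync1h1, the ATPase of cytoplasmic dynein, had a signal of 5270 in Pax6-/- and 5873 in wild type, a log2 ratio of −0.20. Dynll1, a light chain shared with many other complexes, had 17800 in Pax6-/- and 19472 in wild type, a log2 ratio of −0.17. With loess scaling Dync1h1 and Dynll1 turned to 0.08 and 0.20, so they have no settled direction.

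The intermediate chains, which bind dynactin, comprise Dync1i1, the form enriched in neurons, and Dync1i2, the ubiquitous form. Dync1i1 had 2386 in Pax6-/- and 1552 in wild type, a log2 ratio of 0.55, which exceeded the technical spread of 0.38. Its only probe set carries a suffix for shared or less strictly chosen probes, so it has no value without such probe sets. Dync1i2 had 424 in Pax6-/- and 405 in wild type. Dync1i1 thus stood on the other side from the neuronal transport kinesins Kif3c and Kif5a, of which Kif5a lay within the technical spread. Dynll2 had 1332 in Pax6-/- and 1870 in wild type, a log2 ratio of −0.51, although its other probe set, with 265 in Pax6-/- and 224 in wild type, was at 0.13. Dynlrb1, a roadblock light chain, was at 0.05 and −0.13 by its probe sets, and the dim light chain genes Dynlt3 and Dynlt1b were at 0.31 and 0.14.

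Dynactin is the activator that couples dynein to cargo. Of its 5 measured subunits, 4 were lower and 1 was higher (median −0.25). The 4 lower ones were of high signal, where 34.4% of all genes were higher, with a median of −0.16. Dctn2 (dynamitin), which joins the arm to the filament of dynactin, had 879 in Pax6-/- and 1647 in wild type by one probe set, and 990 in Pax6-/- and 1362 in wild type by the other. The log2 ratios of −0.89 and −0.48 shared a sign and both exceeded the technical spread of 0.38. Dctn5, a subunit of the pointed end, had 1498 in Pax6-/- and 1992 in wild type, a log2 ratio of −0.44. Dctn1, the subunit that binds microtubules, had 1506 in Pax6-/- and 1747 in wild type, a log2 ratio of −0.25. Dctn3, the brightest of these genes, had 2265 in Pax6-/- and 2446 in wild type, a log2 ratio of −0.15, and Dctn6 was at 0.04. Under loess scaling Dctn3 turned to 0.03, while Dctn2 stayed lower in 9 of 9 alternatives, from −0.96 to −0.68. Dnah8, an axonemal dynein heavy chain, was measured near the filter, at 148 in Pax6-/- and 236 in wild type, and its other probe set was dim, at 44.1 in Pax6-/- and 28.3 in wild type.

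Of the 9 motor genes past 2-fold, 7 were myosins, all of low signal. Of 31 myosin genes, 21 were higher and 10 lower in Pax6-/-, with a median log2 ratio of 0.27, and 6 were higher and 1 lower by 2-fold or more. The 7 made up 22.6% of the myosins, against 12.2% of all genes. Of the 29 myosins of low signal 24.1% were past 2-fold and 72.4% were higher, against 17.5% and 58.6% of all genes of low signal. Of the 16 above the filter, 10 were higher and 6 lower, with a median of 0.24. Under loess and quantile scaling that median was 0.10 and 0.12.

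Non-muscle myosin II heavy chains drive contraction of the cell cortex. Myh14, the chain of myosin IIC, had a signal of 93.3 in Pax6-/- and 687 in wild type, a 4.54-fold difference and a log2 ratio of −2.18. It was the lowest ratio among the 68 motor genes, it rests on 1 probe set, and over the alternatives it ran from −2.93 to −1.46. Myh9, the chain of myosin IIA, had 661 in Pax6-/- and 790 in wild type by one probe set, and 293 in Pax6-/- and 373 in wild type by the other. The Myh9 log2 ratios of −0.28 and −0.33 were close to each other and within the technical spread. Myh10, the chain of myosin IIB, was dim, with 65.6 in Pax6-/- and 77.9 in wild type.

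The light chains of non-muscle and smooth muscle myosin did not share a direction. Myl12b, a regulatory light chain, had 2634 in Pax6-/- and 3398 in wild type, a log2 ratio of −0.40, just beyond the technical spread of 0.38. Myl9, a regulatory light chain of smooth muscle, lay below the filter, with 43.0 in Pax6-/- and 153 in wild type, a log2 ratio of −0.96. Myl6, the essential light chain, had 370 in Pax6-/- and 85.0 in wild type, a 2.62-fold difference and a log2 ratio of 1.39. Myl6b was nearly equal, at 401 in Pax6-/- and 360 in wild type, while its dim probe set, with 92 in Pax6-/- and 29.6 in wild type, was at 0.60. Myl6 passed the filter through the Pax6-/- array alone, and other settings moved its log2 ratio between 0.83 and 2.07.

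Muscle myosin genes, which encode chains of the sarcomere and of smooth muscle, were dim in cortex and mostly higher in Pax6-/-. Of 8 muscle heavy chain genes, 7 were higher and 1 lower, with a median of 0.79. All were of low signal, where 58.6% of all genes were higher, with a median of 0.12. Below the filter lay 6 of the 8. The probe sets that put Myh4 and Myh8 above it carry a suffix for shared or less strictly chosen probes, and neither gene passed without them. Myh6, a cardiac chain, had 219 in Pax6-/- and 27.2 in wild type, and Myh2, a fast skeletal chain, had 190 in Pax6-/- and 22.1 in wild type. Their log2 ratios were 1.42 and 1.34, and with a pseudocount at the 50th percentile they were 0.70 and 0.64. Myh8, the perinatal skeletal chain, had 569 in Pax6-/- and 237 in wild type, a log2 ratio of 0.98, and 0.29 by its other probe set, with 65 in Pax6-/- and 34.7 in wild type. Myh4, another fast skeletal chain, had 362 in Pax6-/- and 179 in wild type, a log2 ratio of 0.72. Its dim probe set, with 141 in Pax6-/- and 35 in wild type, was at 0.89. Myh3, the embryonic skeletal chain, was the lower one, with 45.1 in Pax6-/- and 120 in wild type.

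Myl4, the light chain of atrial and embryonic muscle, had 410 in Pax6-/- and 70.5 in wild type, a 3.13-fold difference and the highest log2 ratio of the motor genes, 1.65. Its other probe set had 38.9 in Pax6-/- and 22.8 in wild type, a log2 ratio of 0.16, and the difference thus rests on 1 probe set. Myl1, a light chain of fast skeletal muscle, had 203 in Pax6-/- and 255 in wild type, a log2 ratio of −0.29. Markers of skeletal and heart muscle outside the motor genes did not move as a list: of 15, 14 were measured, 5 higher and 9 lower, with a median of −0.15 and a summed signal of 3132 in Pax6-/- and 2870 in wild type. Ckm, Tnnt3 and Tnni2 were at least 2-fold higher and Mylpf at least 2-fold lower, together 28.6% of the 14, against 12.2% of all genes. Mylpf is itself a myosin light chain gene, whose symbol lies outside the rule of selection. Tnni2 and Mylpf lay below the filter, and the other Mylpf probe set, also below it, was at 0.64. Of the 14, 8 lay above the filter, 2 higher and 6 lower. Myod1 and Myog, factors of skeletal muscle, and Actc1, the cardiac actin gene, were among them, with 450, 205 and 488 in Pax6-/- and 501, 215 and 644 in wild type. Acta1 and Des, for skeletal actin and desmin, lay below it, with 32.5 and 42.5 in Pax6-/- and 16.6 and 77.4 in wild type. Of 7 measured markers of smooth muscle and pericytes, 5 were higher and 2 lower, with a summed signal of 985 in Pax6-/- and 850 in wild type, of which Tagln, at 471 in Pax6-/- and 363 in wild type, was the 1 above the filter. Acta2 read 28.8 in Pax6-/- and 16.9 in wild type. The part of such cells in the muscle myosin values was not tested.

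**Figure D4:**
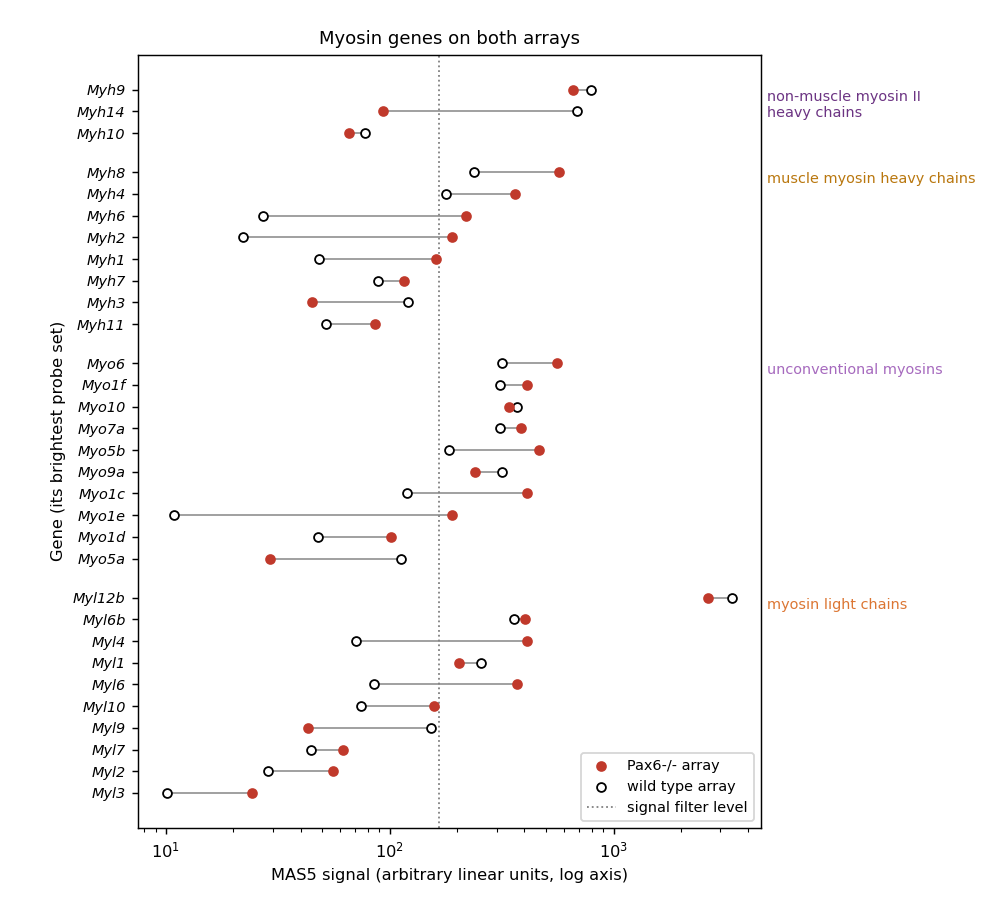
MAS5 signal (log axis) of each myosin gene on the Pax6-/- array (red) and the wild type array (open), by its brightest probe set; the dotted line is the filter level of about 166. Most muscle heavy chains lie left of the line with the Pax6-/- point to the right, and Myh14 shows the reverse, at 93.3 in Pax6-/- and 687 in wild type.

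Unconventional myosins numbered 10, of which 7 were higher and 3 lower, with a median of 0.36. All were of low signal, where 58.6% of all genes were higher, with a median of 0.12. Myo1c, a class I myosin that tethers membranes to actin, had 408 in Pax6-/- and 120 in wild type, a 2.36-fold difference and a log2 ratio of 1.24, and passed the filter through the Pax6-/- array alone. Myo1e, a class I myosin of endocytosis, had 190 in Pax6-/- and 10.8 in wild type, below the filter, with a log2 ratio of 1.51. Myo1f had 410 in Pax6-/- and 311 in wild type, a log2 ratio of 0.28, and Myo1d was at 0.45. All 4 class I genes were on the higher side, but Myo1d and Myo1f lay within the technical spread. Myo1c and Myo1f were the ones above the filter.

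Myo6, the myosin that moves toward the minus end of actin in endocytosis, was measured by 3 probe sets above the filter. One had 557 in Pax6-/- and 317 in wild type, another 517 in Pax6-/- and 310 in wild type, and the remaining one 297 in Pax6-/- and 394 in wild type. Their log2 ratios of 0.63, 0.57 and −0.37 did not share a sign. Myo5b, a motor of recycling endosomes, had 464 in Pax6-/- and 184 in wild type, a log2 ratio of 0.99, against −0.10 for its dim probe set. Both probe sets of Myo5a, which carries organelles to dendritic spines, lay below the filter and disagreed, at −0.85 and 0.57. Myo7a had 385 in Pax6-/- and 312 in wild type, a log2 ratio of 0.20. Myo10, the motor of filopodia, had 341 in Pax6-/- and 369 in wild type, a log2 ratio of −0.14. Both lay within the technical spread, as did Myo9a at −0.35.

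Genes of actomyosin control and of the actin filament differed by signal. Of 23 listed, 17 were measured, with 5 higher, 12 lower and a median of −0.15. All 7 of high signal were lower, with a median of −0.44, against −0.16 over all genes of high signal, of which 34.4% were higher. Of the 8 of low signal 5 were higher, or 62.5%, against 58.6% of all genes of low signal. The myosin-activating kinase gene Rock1 had 601 in Pax6-/- and 243 in wild type, a log2 ratio of 1.03, and −0.08 by its dim probe set. Pfn1 (profilin) was at 1.04. Calm2, a calmodulin gene, and Actn1, an actin crosslinker, were at −1.22 and −1.10, and another Actn1 probe set above the filter was at −0.21. These were the 4 partners of myosin at least 2-fold apart, 23.5% of the 17, against 12.2% of all genes. Of the 8 of low signal 37.5% were past 2-fold, against 17.5% of all genes of low signal. Actb, which encodes beta-actin, was at −0.67 by the brightest of its 8 probe sets. The others ran from −1.35 to 0.40.

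Where a gene had several probe sets they often disagreed. Of 21 such motor genes, 8 had the same sign in all of them. Of the 7 with several probe sets above the filter, 3 did, namely Dctn2, Kif20a and Myh9. The genes at least 2-fold apart above the filter were measured by 1 probe set each, apart from Myl4.

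**Figure D5:**
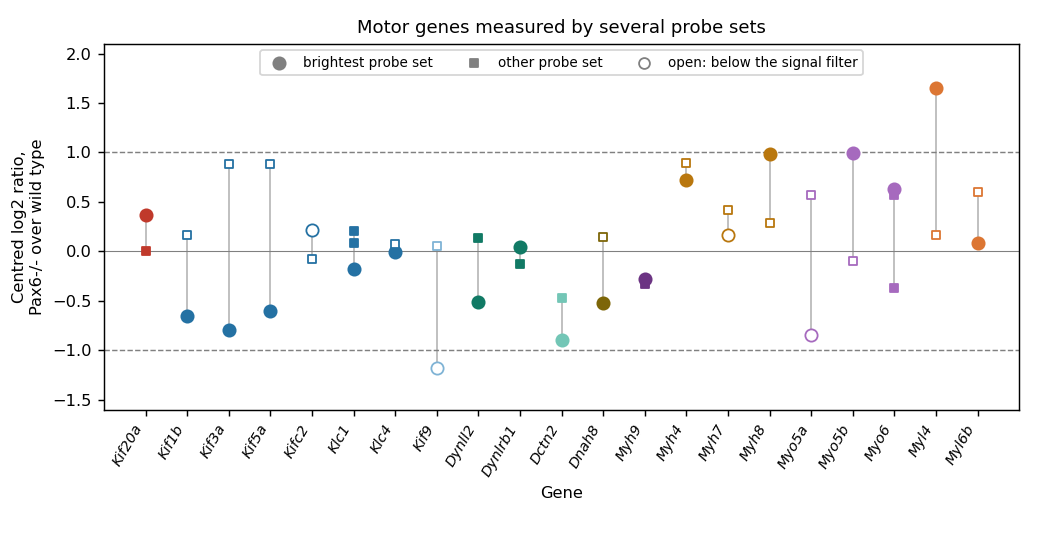
Centred log2 ratio, Pax6-/- over wild type, of every probe set of the 21 motor genes with several, ordered by role; circles are the brightest probe set, squares the others, and open symbols lie below the signal filter. Dctn2 and Myh9 keep their sign, while Kif3a, Kif5a, Kif9 and Myo5a cross 0.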

How the data were processed

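The authors deposited linear MAS5 signals, 1 intensity for each probe set on each array, per the submitters' processing notes. The sources used here do not give its version or scaling target, and no detection calls were used. The 2% trimmed mean was 500.2 on both arrays. Of 12488 probe sets, 10855 have 1 symbol in the platform annotation, and all 91 motor probe sets matched the gene table (GRCm38.p6). Before log2, the 25th percentile over all signals was added as a pseudocount, the filter was the 40th percentile of mean log2 signal, and centring removed a shift of 0.05. The spread was computed over 896 genes that had several probe sets above the filter. The number of arrays limits the precision.

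The members, role classes, gene lists and motifs were chosen with earlier results of these data known. Values are given in full for members at least 2-fold apart, mitotic kinesins and the 4 members of highest signal per class, and from partner lists for genes 2-fold apart and those of largest difference; other members were chosen after their values were seen. The alternatives tried were loess (fraction 0.4, 3 iterations) and quantile scaling, leaving out the centring, a floor at the 1st percentile in place of the pseudocount, a pseudocount at the 50th percentile, a filter at the 60th percentile or none, averaging a gene's probe sets, dropping those with a suffix for shared or less strictly chosen probes, and 1.5-fold and 3-fold thresholds. The steps were tested on simulated arrays. The tools were statsmodels 0.14.6 for loess, pandas 2.3.3 with numpy 2.4.6, and matplotlib 3.10.9, under Python 3.11.15.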

Additional observations from a re-analysis of the deposited data

How the results depend on the processing

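No paired analysis was possible because each genotype has 1 array. The counts of motor genes past 2-fold, 4 higher and 1 lower above the filter, moved with the centring, the pseudocount, the filter and the threshold: leaving out the centring gave 6 higher and 1 lower, no pseudocount gave 6 higher and 2 lower, a pseudocount at the 50th percentile gave 0 higher, leaving out the filter (with the centring over all probe sets) gave 7 higher and 3 lower, a filter at the 60th percentile gave 1 higher and 0 lower, and there were 9 higher and 6 lower at 1.5-fold, and 1 higher at 3-fold. Over all genes, with 282 higher and 305 lower, the same settings gave 317 higher and 280 lower with no centring, 447 and 436 with no pseudocount, 90 and 127 with the 50th percentile, 498 and 525 with no filter, 97 and 113 with the 60th-percentile filter, 785 and 844 at 1.5-fold, and 58 and 68 at 3-fold. Calls over all genes were 48.0% higher in the main setting, 38.2% with quantile and 35.6% with loess scaling. Of 9 alternatives, the median of mitotic kinesins ranged from 0.28 to 0.43 and was always above 0. The median of transport kinesins above the filter turned to 0.034 with the 60th-percentile filter, where 7 genes were left, and was −0.024 with plain probe sets, against −0.23; the myosin median was 0.083 with plain probe sets, against 0.24. The median of dynein and dynactin ranged from −0.22 to −0.03, and was always below 0. Of 343 recomputed values of 40 named genes, 8 fell below 2-fold, all with the 50th-percentile pseudocount, and 3, all of Myh8, rose past it.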

Other observations

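Several dim motor genes differed by more on the signals as deposited than after the pseudocount, and these values have no replicate. Myo1e was 17.5-fold apart by its signals of 190 in Pax6-/- and 10.8 in wild type, Myh2 8.59-fold, Kif16b 8.40-fold and Myh6 8.04-fold, all higher in Pax6-/-. Differences of similar size also ran the other way. The Pax6-/- signal over that of wild type was 0.111 for Kif9 by its brighter probe set and 0.136 for Myh14. The other Kif9 probe set was at 1.37 on that measure. No detection calls were used, so whether the lower signal of each is above background is not known here.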
